A study of Mus musculus with 31 samples.

Results

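Genes of the choroid plexus and of the ependyma, the cell layers that produce and move cerebrospinal fluid, were followed across 31 Affymetrix mouse arrays whose labels name CD4 T cells. The 8 genes were given by name: Ttr, Kl, Folr1, Clic6, Aqp1, Otx2, Enpp2 and Foxj1. All probe sets that the platform annotation pairs with these symbols were taken, which gave 12 probe sets for 7 of the 8 genes, out of 45037 probe sets that are not controls and 18194 genes with a symbol of their own. Enpp2 was not analysed here. The members were measured with 4 probe sets for Ttr, 2 each for Kl and Clic6, and 1 each for Folr1, Aqp1, Otx2 and Foxj1.

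The choroid plexus is a folded epithelium that hangs into the brain ventricles and secretes cerebrospinal fluid, and its cells carry very large amounts of Ttr messenger RNA. Because it lies loose inside the ventricles, a dissected piece of brain can hold much, little or none of it, and Ttr is a well-known sign of how much was taken along. Ependymal cells line the ventricles and the central canal of the spinal cord, and their beating cilia depend on the transcription factor Foxj1.

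The study compared natural and induced regulatory T cells (Treg), and cells with an intact or a mutant Foxp3 reporter allele, with 1 array per sample. Per the labels, 2 arrays held induced Foxp3-delta cells kept in interleukin 2 (IL-2) at 100 units per ml for 1 week after sorting, and 2 held induced Treg kept the same way. Induced Foxp3-delta cells (3 arrays) came from Foxp3deltaEGFP mutant mice. Their CD4 T cells without the reporter were treated with antibodies to CD3 and CD28 and with TGF-beta for 3 days and then sorted for it. Induced Treg (5 arrays) were made in the same way from Foxp3/EGFP bicistronic mice, and failed induced Treg (3 arrays) were the cells of those cultures without the reporter. Activated natural Treg (3 arrays) were reporter-positive cells of bicistronic mice given both antibodies and TGF-beta, and activated T cells (4 arrays) were reporter-negative cells given the antibodies alone. Natural Foxp3-delta cells (2 arrays) were unstimulated reporter-positive cells of heterozygous Foxp3deltaEGFP females. Natural Treg (4 arrays) and conventional T cells (3 arrays) were unstimulated cells of bicistronic mice, with and without the reporter. The cells came from spleen and lymph nodes, and the reporter-negative mutant cells from males. The labels give no ages and do not say that the numbered samples came from separate animals or cultures, so a p-value here weighs the spread of these samples alone, part or all of which may be technical.

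The measured RNA went against these labels, so each group is called by its label throughout. Of 9 measured T cell genes, 8 lay on average below the middle of the array, and the remaining 1, Ptprc, lay at percentile 63.9. Foxp3, the gene of the labels' reporter allele and not among the 4 brightest of these genes, read 12.7 ± 1.68 (SD, n = 31) normalised intensity units. Genes of nervous tissue lay near the top of the arrays instead: the median gene lay at percentile 99.7 of an array for 7 oligodendrocyte genes, 99.1 for 6 astrocyte genes and 99.7 for 6 neuron genes. Array medians of the deposited intensities ran from 22.2 to 55.4, and 3 technical array sets of 15, 6 and 10 arrays (Ward clusters on hybridisation controls, the median and the 99th percentile) divided the arrays in part along the labels. Values below are therefore given as deposited, as a percentile within the array, or after quantile normalisation, which brings all arrays to 1 distribution. Intensities of different probe sets do not compare amounts of RNA between genes.

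The choroid plexus genes were dim on every array. The 12 probe sets had a median position at percentile 33.0 of an array, 11 of them lay below the middle on average, and no member passed percentile 55.9 on any array. The background was read from 27 probe sets for bacterial genes other than the hybridisation controls (the poly-A control genes; the sources used here do not say whether their RNA was added). Their normalised intensities had a median of 8.55, and 95% of them lay under 13.7. In 6 of the 12 probe sets every array was above the 95th percentile of these controls on the same array, in 4 some arrays were, and in 2 none was. Among all probe sets 65.4% were above it on every array. This comparison describes brightness and does not separate low expression from cross-hybridisation, which can differ between probe sets.

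**Figure D1:**
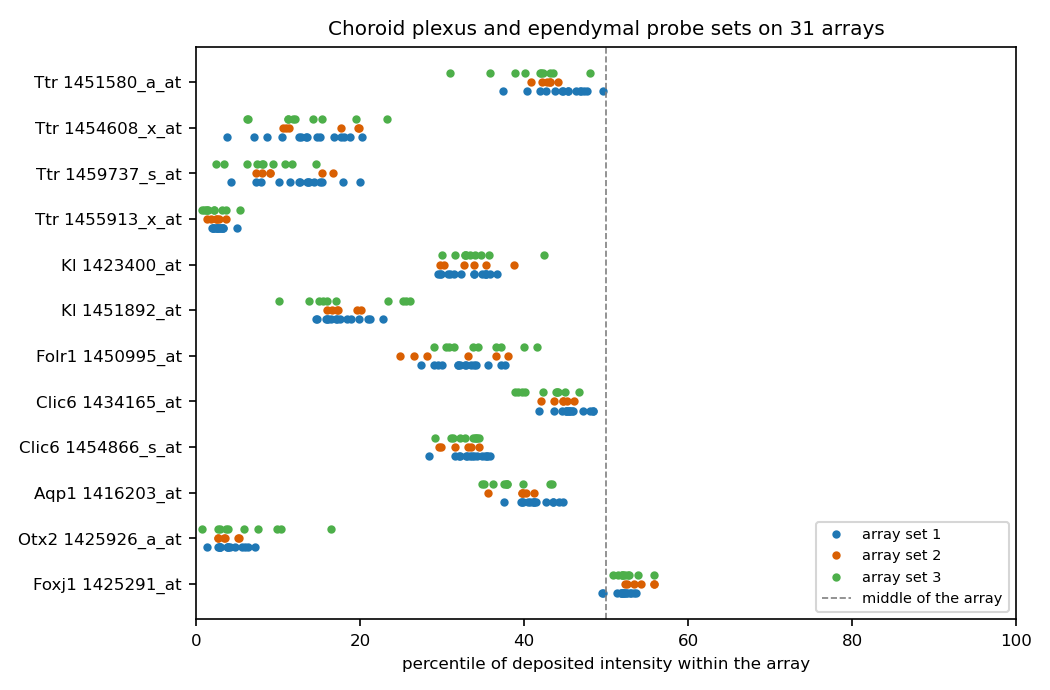
Percentile of the deposited intensity within each array (x axis) for the 12 member probe sets (rows), 1 point per array, coloured by technical array set. Foxj1 lies around the middle of the arrays, between percentiles 49.6 and 55.9, and all other probe sets lie to the left of percentile 50.

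Ttr encodes transthyretin, the carrier of thyroid hormone and retinol-binding protein that choroid plexus cells secrete. Its brightest probe set, 1451580_a_at, had deposited intensities of 28.7 and 41.7 on the arrays labelled IL-2 induced Foxp3-delta, and 32.3 and 31.5 on those labelled IL-2 induced Treg. It read 36.0, 30.7 and 23.2 under the induced Foxp3-delta label and 26.9, 27.8, 27.9, 37.1 and 26.4 under the induced Treg label. For failed induced Treg it read 38.8, 36.6 and 33.9. The failed induced Treg arrays lay above 4 of the 5 induced Treg arrays.

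On the arrays labelled activated natural Treg, Ttr read 17.0, 16.6 and 15.8 as deposited, and on those labelled activated T it read 29.3, 12.6, 15.3 and 20.2. It read 31.6 and 22.8 for natural Foxp3-delta and 30.6, 23.4, 36.5 and 23.2 for natural Treg. For conventional T it read 39.1, 33.8 and 29.8. The 8 lowest deposited values all fell on arrays of set 3. After normalisation the full range was 16.6 to 39.0, a 2.36-fold span around a mean of 27.9 ± 4.85 (SD, n = 31), or percentiles 31.01 to 49.7.

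The other Ttr probe sets lay lower. Probe set 1454608_x_at averaged 10.4 ± 1.20 normalised units (SD, n = 31) and passed the control level on 5 arrays. Probe set 1459737_s_at averaged 9.70 ± 1.04 and passed it on 1 array. Probe set 1455913_x_at averaged 7.62 ± 0.332 and passed it on none. The 4 probe sets showed no shared variation across the arrays, and their brightness differed too. Over 8 pairs of probe sets of the same gene (6 for Ttr, 1 each for Kl and Clic6), Pearson's r across the 31 arrays lay between -0.12 and 0.10.

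Kl encodes Klotho, a coreceptor for fibroblast growth factor 23 made in kidney and choroid plexus. Its probe set 1423400_at averaged 18.2 ± 2.17 (SD, n = 31) and lay between percentiles 29.5 and 42.4, and its probe set 1451892_at averaged 11.6 ± 1.11 and passed the control level on 10 arrays. Folr1, the folate receptor that carries folate across the choroid plexus, averaged 18.1 ± 2.70 and lay between percentiles 24.9 and 41.6, above the control level on 30 arrays. Both genes thus sat in the lower part of every array.

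Clic6 encodes a chloride intracellular channel protein found in choroid plexus epithelium. Its probe set 1434165_at averaged 29.5 ± 3.64 (SD, n = 31) and ranged from 22.4 to 36.4, and its probe set 1454866_s_at averaged 17.8 ± 1.18. Aqp1, the water channel of the apical choroid plexus membrane, averaged 23.8 ± 2.84 and ranged from 19.0 to 29.6. Otx2, a homeobox factor needed to form and maintain the choroid plexus, averaged 8.21 ± 0.771 and passed the control level on none of the 31 arrays.

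Foxj1 was the member with the highest position on the arrays. As deposited it read 49.2 and 48.4 under the label IL-2 induced Foxp3-delta, and 36.1 and 45.1 under IL-2 induced Treg. It read 60.7, 51.3 and 38.9 for induced Foxp3-delta and 47.2, 51.7, 60.5, 71.1 and 38.8 for induced Treg. For failed induced Treg it read 54.9, 49.2 and 40.3. These groups overlapped with each other, apart from IL-2 induced Treg, whose arrays lay below both of IL-2 induced Foxp3-delta. The share of all probe sets without overlap between those labels was not counted.

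Under the activated natural Treg label Foxj1 read 29.7, 31.4 and 41.6 as deposited, and under activated T 59.3, 29.5, 25.6 and 35.9. It read 65.0 and 35.3 for natural Foxp3-delta, and 48.3, 51.8, 55.3 and 42.2 for natural Treg. For conventional T For conventional T it read 46.01, 52.2 and 54.1. After normalisation the range narrowed to 38.8 to 56.9 around a mean of 46.7 ± 4.38 (SD, n = 31). All 31 arrays then lay above the brightest of the 27 bacterial control probe sets on the same array, which held for 22 arrays for Ttr, 22 for Clic6, 12 for Aqp1, 1 for Kl and none for Folr1 or Otx2, each by its brightest probe set.

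The spread of the members between arrays was mostly small for their brightness. Probe sets were divided into 10 equal bins by mean intensity, and the SD of log2(normalised intensity + 16) over the 31 arrays was ranked within the bin. Of the 12 members 9 ranked below the middle of their bin. Foxj1 had an SD of 0.10 and ranked at percentile 5.60, and Clic6 1434165_at an SD of 0.12 at percentile 19.2. The brightest Ttr probe set had the largest SD of the members, 0.16, at percentile 61.1 among 4504 probe sets of like intensity, near the middle of that bin. These SDs hold for this scale: the largest was 0.27 as deposited, 0.25 with a pseudocount of 1 and 0.08 with a pseudocount of 64, and the SD moved by over 1.5 times in 12, 11 and 12 of the 12 probe sets.

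Other genes of the choroid plexus and of ciliated cells, from lists written from textbook knowledge, were set beside the members. Of 23 further choroid plexus genes 21 were measured. By the brightest probe set of each gene, their median lay at percentile 51.7 of an array (between 47.1 and 54.7 over the arrays). The members' median of 33.0 was taken over all 12 probe sets, so these medians are not like measures. By brightest probe set the members' mean percentiles were 43.0 (Ttr), 33.4 (Kl), 33.0 (Folr1), 44.4 (Clic6), 40.0 (Aqp1), 4.74 (Otx2) and 52.6 (Foxj1). The brightest were Car14, a membrane carbonic anhydrase, at 769 ± 111 (SD, n = 31), Cab39l at 329 ± 23.6, Ecrg4, a secreted peptide precursor, at 165 ± 20.4 and Slc31a1, the copper importer, at 123 ± 15.4. These are not confined to choroid plexus. Of the 21 genes, each by its brightest probe set, 13 passed the control level on every array, and 65.4% of all probe sets did so. The 65.4% takes in all probe sets and not the brightest of each gene, so the shares are not like measures. Kcne2, a potassium channel subunit of the choroid plexus epithelium named after its values were seen, averaged 8.26 ± 1.03 and passed the control level on 0 arrays. It was the only 1 of the 21 to pass it on none.

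Of 28 further ependymal and cilia genes 24 were measured, with a median at percentile 42.7, 16 of them below the middle on average. The brightest were Rarres2, the chemerin precursor, at 221 ± 37.6 (SD, n = 31), Mia at 133 ± 15.9, Rsph1, a radial spoke protein, at 104 ± 16.8 and Rfx3, a regulator of cilia genes, at 99.5 ± 24.5. Genes of other tissues that express Ttr, Kl or Otx2 lay low as well, with a median at percentile 30.7 for 7 liver genes, 24.6 for 6 kidney genes and 30.6 for 6 pineal and retinal genes. Genes of vessels (7, percentile 80.6) and of meninges and fibroblasts (9, percentile 72.7) lay higher on the arrays. In bulk RNA, fewer cells of a type and less RNA per cell cannot be told apart.

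**Figure D2:**
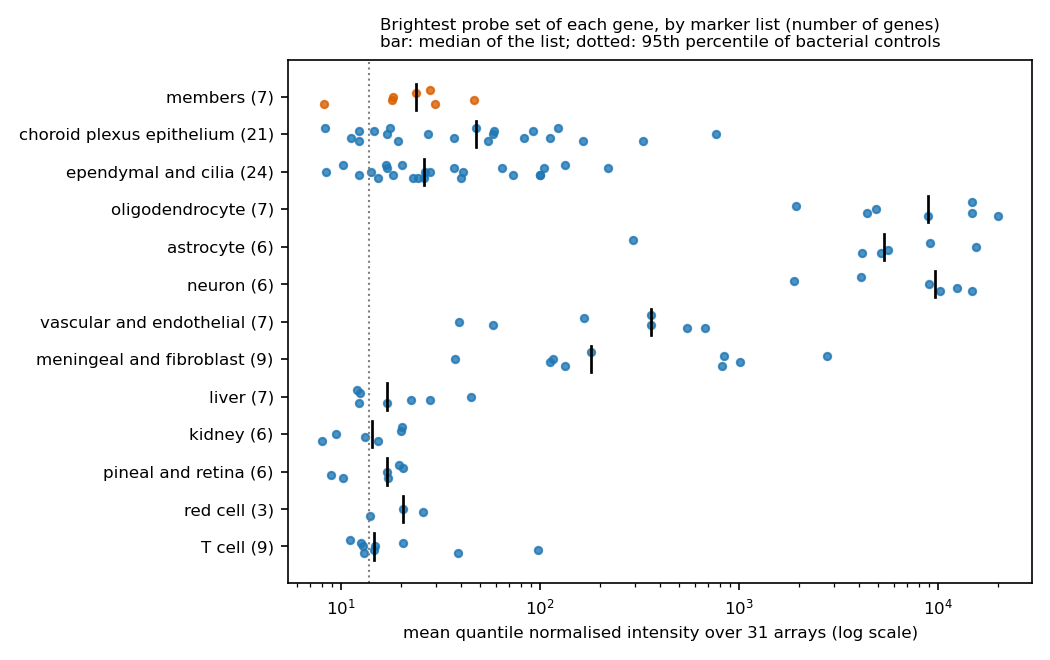
Mean quantile normalised intensity over the 31 arrays (x axis, log scale) of the brightest probe set of each gene, for the 7 members (top row) and 12 marker lists (rows, with the number of genes); bars are list medians and the dotted line is the 95th percentile of the bacterial controls, 13.7. Oligodendrocyte, astrocyte and neuron genes lie far to the right of the members, while liver, kidney, pineal and T cell genes overlap them.

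Whether the members followed the labels was tested with limma on log2(normalised intensity + 16), with 1 mean for each of the 10 label groups. Log2 differences are on that scale and understate changes of dim probe sets. Probe sets entered the test if they lay above the table's median, 39.8, on at least 2 arrays. Of the 12 members only Foxj1 passed this filter, against 54.8% of all probe sets. Foxj1 did not differ among the label groups (F test, limma adjusted p = 0.678), where 12.4% of the 24669 tested probe sets were called at an adjusted p under 0.05 and 29.8% had an unadjusted p under 0.05.

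Without the filter all 12 members could be tested, over 45037 probe sets, and 7.31% of these were called by the F test. Among the members 1 was called, the brightest Ttr probe set (limma adjusted p = 0.0377). A share of 1 in 12 is close to that background. Normalised, this probe set averaged 34.3 ± 6.74 (SD, n = 2) under the label IL-2 induced Foxp3-delta, 33.5 ± 1.78 (n = 2) under IL-2 induced Treg and 34.3 ± 1.06 (n = 3) under failed induced Treg. It averaged 26.8 ± 0.933 (n = 3) for induced Foxp3-delta and 26.5 ± 0.621 (n = 5) for induced Treg. The arrays of the first 3 labels lay at 29.5 or above, and those of the last 2 at 27.4 or below. How many of all probe sets split these labels in the same way was not counted, so the split cannot be read as particular to Ttr.

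For activated natural Treg Ttr averaged 22.7 ± 3.12 (SD, n = 3), for activated T 23.7 ± 5.20 (n = 4) and for natural Foxp3-delta 26.1 ± 2.35 (n = 2). For natural Treg it averaged 26.3 ± 4.58 (n = 4) and for conventional T 30.6 ± 2.54 (n = 3). Ttr moved with the technical array sets as well, with means of 30.2 ± 4.61 (n = 15), 26.8 ± 1.42 (n = 6) and 25.1 ± 5.08 (n = 10) in sets 1, 2 and 3. With the set as a block the F test gave an adjusted p of 0.3 (limma), and with the replicate number as a block 0.0757. The call was also lost when any 1 of 13 arrays was left out: failed induced Treg 1, 2 or 3, IL-2 induced Treg 1 or 2, IL-2 induced Foxp3-delta 2, activated natural Treg 2 or 3, activated T 4, induced Treg 4, natural Treg 4, or conventional T 1 or 2. The adjusted p ran from 0.0193 to 0.0754 over the 31 omissions.

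**Figure D3:**
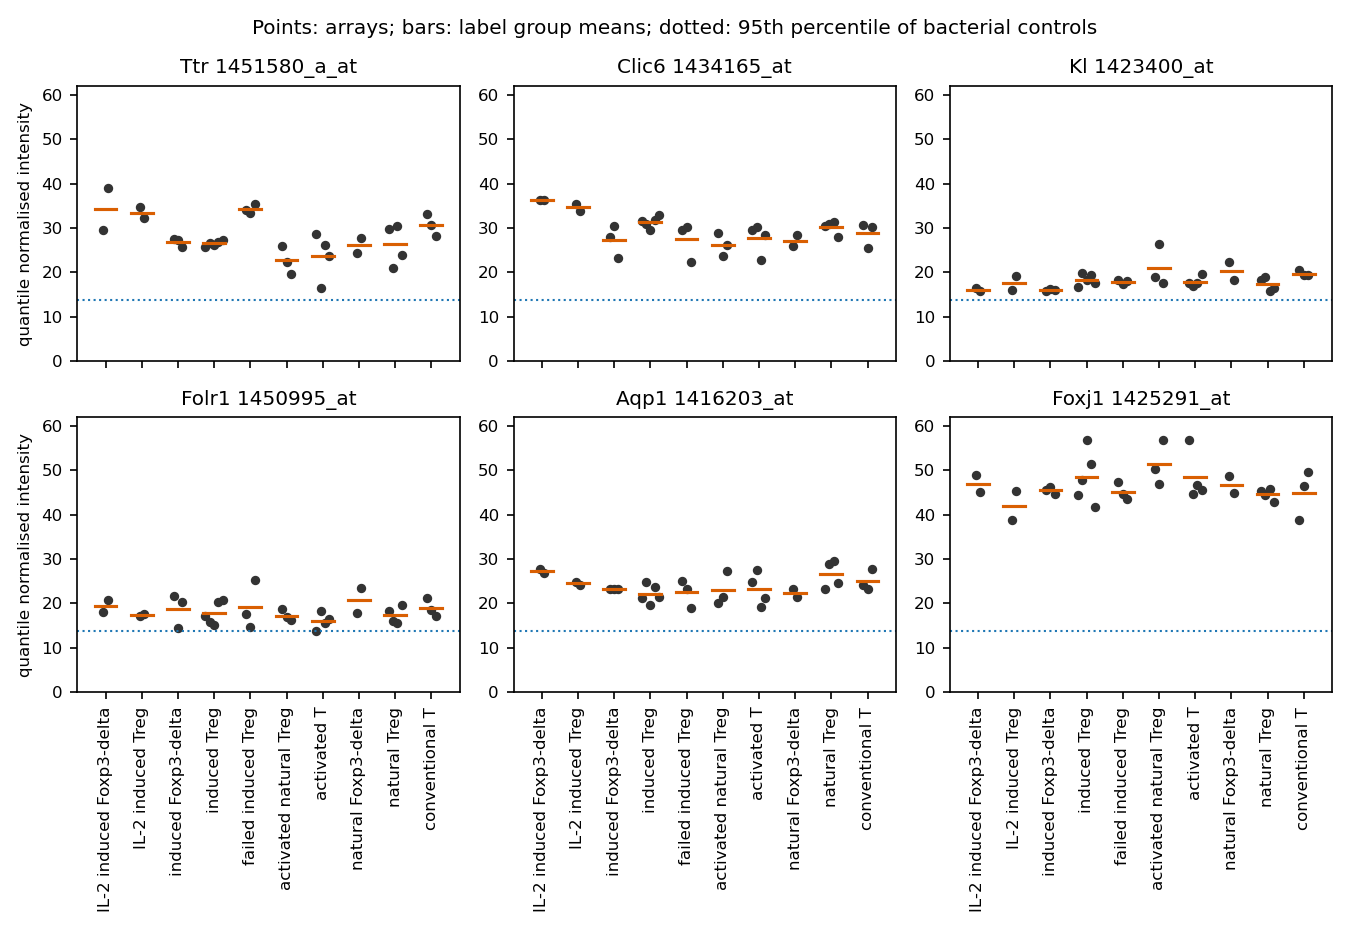
Quantile normalised intensity (y axis) of the brightest probe set of 6 member genes on each array (points) by label group (x axis), with group means (bars) and the 95th percentile of the bacterial controls (dotted line, 13.7). The Ttr points of failed induced Treg lie between 33.3 and 35.4, above the 25.8 to 27.4 of induced Treg, and the Foxj1 points stay between 38.8 and 56.9. The share of all probe sets that separate the labels as fully was not counted.

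The 9 comparisons of label groups gave no call among the members on the normalised values with a pseudocount of 16, with or without the filter. IL-2 induced Foxp3-delta and IL-2 induced Treg, which ask what the mutant allele changes after further culture, differed by 0.12 in Foxj1 (SE 0.10, 95% interval -0.09 to 0.34). Here 0% of all tested probe sets were called by limma and 2.74% had an unadjusted p under 0.05. Without the filter 0 of 12 members were called and 1, Clic6 1454866_s_at, had an unadjusted p under 0.05, against 2.82% of all probe sets.

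IL-2 induced Treg and induced Treg, which ask what further culture changes, differed by -0.15 in Foxj1 (SE 0.09, interval -0.33 to 0.03), against 1.79% of probe sets called (1.21% without the filter). The brightest Ttr probe set showed a difference of 0.22 (SE 0.10, interval 0.02 to 0.41, limma adjusted p = 0.31 without the filter). Its groups did not overlap, 32.2 to 34.7 (n = 2) against 25.8 to 27.4 (n = 5). How many of all probe sets separated as fully was not counted, so the separation cannot be read as particular to this Ttr probe set. That probe set was the only 1 of 12 members with an unadjusted p under 0.05 there, against 13.3% of all probe sets. The other Ttr probe sets differed by 0.05, -0.01 and -0.01. The interaction of IL-2 culture with the allele was 0.18 in Foxj1 (SE 0.13, interval -0.08 to 0.45), with 0% of probe sets called, no member called and none with an unadjusted p under 0.05.

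Induced Foxp3-delta and induced Treg, which ask what the mutant allele changes on induction, differed by -0.06 in Foxj1 (SE 0.08, interval -0.22 to 0.09), with 0% called. Clic6 1434165_at averaged 27.2 ± 3.62 (SD, n = 3) and 31.4 ± 1.24 (n = 5) in these groups, a log2 difference of -0.14 (SE 0.07, limma adjusted p = 1 without the filter), and was the only 1 of 12 members with an unadjusted p under 0.05, against 3.18% of all probe sets. Ttr differed by 0.01 (SE 0.08, interval -0.16 to 0.18).

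Induced Treg and failed induced Treg, which separate cells of the same cultures by their reporter, differed by 0.07 in Foxj1 (SE 0.08, interval -0.09 to 0.23), with 0% called. The brightest Ttr probe set read 25.8, 26.7, 26.1, 26.8 and 27.4 normalised units on the induced Treg arrays and 34.1, 33.3 and 35.4 on the failed induced Treg arrays. All arrays of the first label thus lay below all of the second. The log2 difference was -0.24 (SE 0.08, interval -0.41 to -0.07) with an unadjusted limma p of 0.00798 that did not pass over all probe sets (adjusted p = 1). No other member had an unadjusted p under 0.05, against 4.65% of all probe sets. The other Ttr probe sets differed by -0.03, -0.02 and 0.03. The share of all probe sets that separated these 2 labels as fully was not counted, so the separation cannot be read as particular to Ttr.

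Induced Treg and activated T, the comparison closest to induction by TGF-beta, differed by -0.00162 in Foxj1 (SE 0.07, interval -0.15 to 0.14), with 0.0568% of probe sets called (0.0422% without the filter). No member had an unadjusted p under 0.05 with or without the filter, against 9.84% of all probe sets without it. With the array set as a block, Folr1 differed by 0.21 (SE 0.07, limma adjusted p = 0.416, unadjusted p under 0.05), against 0.08 without the block. As deposited, 3 members were called, Foxj1 among them, with a difference of 0.40 (limma adjusted p = 0.0426), where 16079 of all probe sets were called too. The filter was set anew on the deposited values, so members besides Foxj1 entered that fit. How many members and probe sets entered it is not given here, so the 3 calls have no share to be weighed against.

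Activated natural Treg and natural Treg, which ask what stimulation changes in Treg, differed by 0.15 in Foxj1 (SE 0.08, interval -0.01 to 0.31, limma adjusted p = 0.203), against 15.6% of probe sets called. As deposited the Foxj1 difference was -0.39, and 2 members were called, where 16145 of all probe sets were called too. The numbers that entered that fit are not given here, so these counts give no shares. Without the filter 9.71% of all probe sets and 0 of 12 members were called, and 3 members had an unadjusted p under 0.05, against 25.4% of all probe sets. That 0 depended on the settings: without the filter, 5 members were called with array medians, 1 with a pseudocount of 1 and 1 with a trended prior. The share of all probe sets called in those fits was not counted, so these calls have no background beside them. On the quantile normalised values without the filter, the smallest limma adjusted p of a member was 0.0561, for Ttr 1459737_s_at at -0.14 (SE 0.05). That probe set lay within the control level on all but 1 array. Of the cilia list Rfx3 was called: it fell by 0.84 (SE 0.20, limma adjusted p = 0.00747), with 63.3 ± 11.96 (SD, n = 3) under the activated natural Treg label and 125 ± 12.2 (n = 4) under the natural Treg label. The 3 and 4 arrays lie in different array sets, and once the array set entered the fit, where other label groups alone link the sets, the difference was -0.47 (adjusted p = 0.203). Rfx3 was 1 of 10 tested genes of that list. Another of the 10, Ak7, named here for its call, was called by the F test over the label groups, against 12.4% of all tested probe sets. The further choroid plexus genes had 0 of 13 tested genes called in each of the 9 comparisons and in the F test.

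To ask what receptor stimulation changes, activated T was set against conventional T, and they differed by 0.08 in Foxj1 (SE 0.08, interval -0.08 to 0.24), against 6.17% of probe sets called (3.11% without the filter). The brightest Ttr probe set differed by -0.24 (SE 0.09, limma adjusted p = 0.126 without the filter), with overlapping groups, 16.6 to 28.6 under the activated T label and 28.1 to 33.2 under the conventional T label. It was the only 1 of 12 members with an unadjusted p under 0.05, against 18.7% of all probe sets. As deposited the Foxj1 difference was -0.35. With the array set as a block, Folr1 differed by -0.35 (SE 0.09, limma adjusted p = 0.186, unadjusted p under 0.05), against -0.13 without the block. Conventional T lies in array set 1 and activated T in sets 2 and 3, so the labels share no set. In the block fit other label groups alone link the sets, so -0.35 is not a comparison within sets. The differences without the block cannot separate label from array set.

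Natural Foxp3-delta and natural Treg, which ask what the mutant allele changes in unstimulated cells, differed by 0.05 in Foxj1 (SE 0.09, interval -0.14 to 0.24), with 0.0892% of probe sets called (0.0422% without the filter). Natural Treg and conventional T differed by -0.00460 in Foxj1 (SE 0.08, interval -0.17 to 0.16), with 0.00405% called. In both comparisons no member had an unadjusted p under 0.05 without the filter, against 12.5% and 2.41% of all probe sets. A p that misses the threshold does not show equal levels, and the intervals for Foxj1 leave room for differences of up to 0.34 on the log2 scale in these 9 comparisons.

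**Figure D4:**
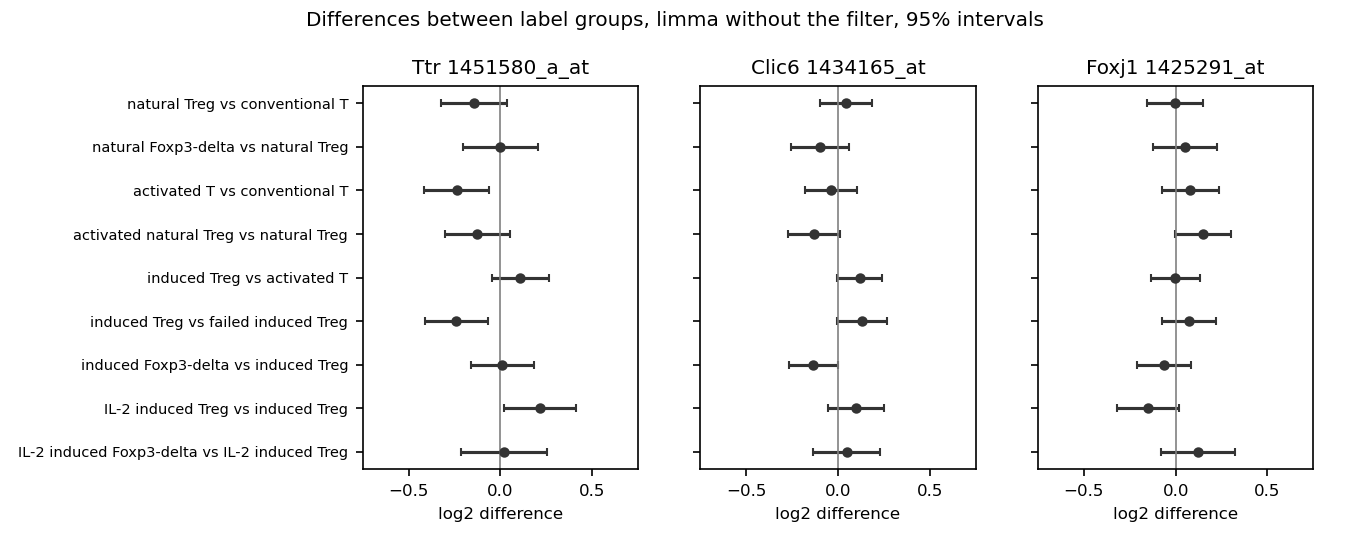
Log2 differences (x axis; first-named label minus second-named label) for the brightest Ttr and Clic6 probe sets and for Foxj1 in the 9 comparisons (rows), from limma without the filter; bars are 95% intervals. The Ttr interval for induced Treg against failed induced Treg runs from -0.41 to -0.07, and all Foxj1 intervals include 0.

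Ttr was set against the 6 other measured genes, each by its brightest probe set, over 31 arrays, with permutation p-values (two-sided) adjusted over the 6 genes. Pearson's r was 0.31 for Clic6 (p = 0.0871, adjusted p = 0.306; Spearman's rho 0.34, adjusted p = 0.356), 0.25 for Folr1 (adjusted p = 0.327; rho 0.20), and 0.16 for Otx2 (adjusted p = 0.444; rho 0.14). It was -0.30 for Foxj1 (permutation adjusted p = 0.306; rho -0.21), -0.23 for Kl (adjusted p = 0.327; rho -0.20) and -0.07 for Aqp1 (adjusted p = 0.702; rho 0.09). No relation passed for either measure.

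As deposited, the same pairs gave r of 0.83 for Clic6, 0.73 for Aqp1, 0.73 for Foxj1, 0.68 for Folr1, 0.58 for Kl and 0.43 for Otx2, each with a permutation adjusted p between 2e-05 and 0.0167. By Spearman's rho Otx2 did not pass (0.31, permutation adjusted p = 0.0883). Deposited values share the overall level of their array. Without the 2 arrays farthest from the Ttr median (IL-2 induced Foxp3-delta 2 and activated T 2), normalised r was 0.28 for Clic6 and -0.40 for Foxj1, with adjusted p of 0.336 and 0.195. Within array set 1 r for Clic6 was 0.38 (n = 15, permutation adjusted p = 0.795), within set 2 it was 0.58 (n = 6, exact permutation adjusted p = 0.618) and within set 3 it was -0.32 (n = 10, permutation adjusted p = 0.452). Aqp1 was the only gene to pass in any set, at -0.82 in set 3 (n = 10, adjusted p = 0.0175; rho -0.67, adjusted p = 0.149), and it stood at -0.11 in set 1 and 0.40 in set 2. Over all 21 pairs of member genes, as a description, normalised r ran from -0.43 (Folr1 and Foxj1) to 0.49 (Clic6 and Aqp1).

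**Figure D5:**
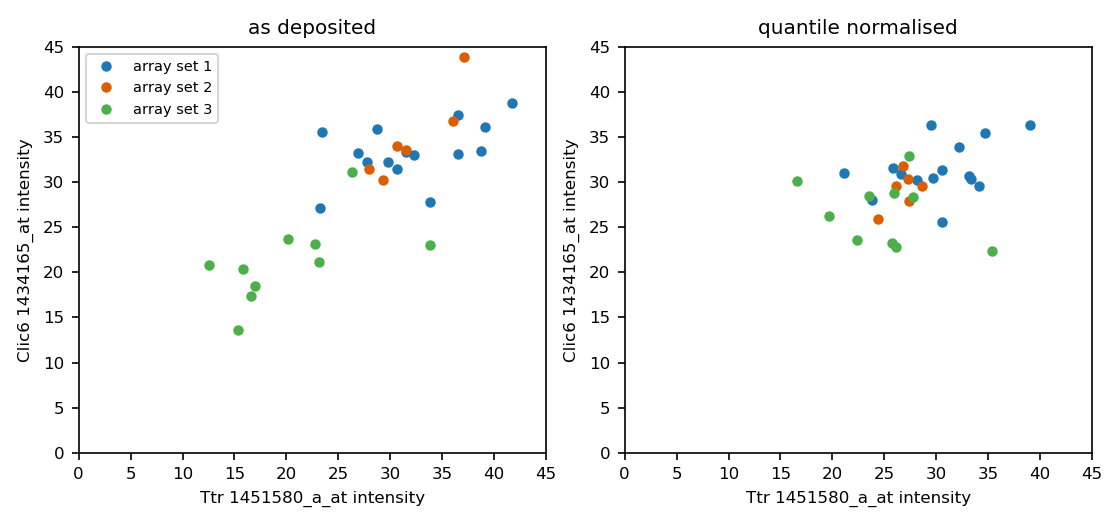
Intensity of the brightest Ttr probe set (x axis) and Clic6 probe set (y axis) on each of the 31 arrays, as deposited (left) and quantile normalised (right), coloured by technical array set. The relation with r of 0.83 as deposited is 0.31 after normalisation.

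The genes whose tested probe sets followed Ttr most closely over the 31 arrays were Pkig (r = 0.70), Necap1 (0.70), Ppp3r1 (0.68), Ppp1r2 (0.67) and Kif5c (0.67), none of them from the choroid plexus list. Of the 21 further choroid plexus genes the closest, Calml4, reached 0.45 and the median was -0.08. For Foxj1 the closest genes were Ywhaq (0.67), Ndufab1 (0.67) and Jade2 (0.66). These are the highest correlations among all tested probe sets with 1 symbol, over arrays that share level and array set, and they are given as a description.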

How the data were processed

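The deposited file holds 1 intensity per probe set and array on a linear scale, as its values show. Biotin-labelled cRNA was made by an Affymetrix protocol, per the labels. The authors' probe summary, background correction and scaling have no statement in the sources used here, which leaves the scaling and any centring of these values unknown. Symbols came from the platform annotation: 34958 of 45101 probe sets carried 1 symbol, 932 several and 9211 none that was listed, and 64 were controls. None with several symbols is named.

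Arrays were quantile normalised and analysed as log2(intensity + 16) with limma 3.58.1 in R 4.3.3 (lmFit, eBayes) over all 31 arrays, with 1 mean per label group, for all probe sets above the table's median on at least 2 arrays. Benjamini-Hochberg adjustment ran over all probe sets tested, and a probe set was called at an adjusted p under 0.05. The number of arrays limits the precision. Correlations used 100000 permutations, or all orders within the set of 6 arrays (Python 3.11.15, scipy 1.17.1). The fit was also run on simulated data, but no outcome is given here, so that run does not bear on the results above. Array correlations ran from 0.980 to 0.996 and no array repeated another.

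The members, the 12 marker lists, the comparisons, the normalisation and the array sets were chosen with earlier results of these data known. Genes outside the members were named by rule: the 5 closest to Ttr and 3 closest to Foxj1 by Pearson's r, and the 4 brightest genes of a list; others are marked. Same-numbered arrays mostly did not deviate together (r over 0.1 in 3 of 25 pairs, from -0.22 to 0.32), so the label numbers were not taken as pairs. The highest values, 0.31 and 0.32, were numbers 1 and 2 of induced Treg and failed induced Treg, which come from the same cultures per the labels, and number 3 gave 0.041. Without the replicate block, the p-values of that comparison leave out any such link. The 25 values are not all independent. Both pairs of IL-2 induced Foxp3-delta and IL-2 induced Treg gave 0.0146, because deviations mirror each other in groups of 2 arrays. Alternatives were the values as deposited, array medians, pseudocounts of 1 and 64, no filter, 1 probe set per gene, blocks for array set and replicate number, a trended prior and omission of each array.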

Additional observations from a re-analysis of the deposited data

Results flagged for a closer look

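Of 36 sets of values (12 probe sets in the 3 label groups with 4 or 5 arrays), 2 held an array set far from the others, and chance alone gives about 1 in 20. Foxj1 on activated T array 1 read 56.9 normalised units, with 44.7, 46.6 and 45.6 on the other arrays of that label; on the log2(intensity + 16) scale its gap to the nearest array was 0.830 of the group's range. The Ttr probe set 1454608_x_at on natural Treg array 4 read 8.81 normalised units, with a gap of 0.877 of the range on the same log2 scale, at an intensity within the bacterial controls. Activated T array 1 is the only array of its label in technical set 2, whose Foxj1 values averaged 50.9 ± 5.03 (SD, n = 6), and the part of the set in this value was not tested.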

How the results depend on the processing

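Counts of called members stayed at 0 when 1 choice was changed at a time, except in these cases. As deposited, 1 member was called by the F test, 1 in activated T versus conventional T, 2 in activated natural Treg versus natural Treg and 3 in induced Treg versus activated T, and without the filter 1 was called by the F test. The numbers of members and probe sets that entered the as-deposited fits are not given here, so the as-deposited counts give no shares. None was called in 94 leave-one-out counts, nor with the replicate block, where the count was 0 in all comparisons. Foxj1 differences changed sign in 5 comparisons: for induced Treg versus activated T to 0.40 as deposited, 0.00409 with array medians and 0.037 with the replicate block, between -0.047 and 0.059 without single arrays; for natural Treg versus conventional T to 0.00327 with the replicate block, between -0.079 and 0.050 without single arrays. As deposited they were, for larger differences too, -0.35 for activated T versus conventional T, -0.39 for activated natural Treg versus natural Treg and -0.017 for natural Foxp3-delta versus natural Treg.

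Correlations with Ttr passed by Pearson's r as deposited (0.584 for Kl, 0.680 for Folr1, 0.827 for Clic6, 0.728 for Aqp1, 0.428 for Otx2, 0.727 for Foxj1), and in array set 3 for Aqp1 (-0.823). As deposited the signs for Kl, Aqp1 and Foxj1 turned from negative to positive. Signs also turned for Otx2 with array medians (-0.167), and in array set 2 for Folr1 (-0.240), Aqp1 (0.399) and Foxj1 (0.166). For Clic6 the sign turned in set 3 (-0.319) and on deviations from group means (-0.00230). The cause was not tested.

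Counts over all probe sets moved more. The F test called 3055, and 254 with the array set as a block to 13786 as deposited over the alternatives. Activated natural Treg versus natural Treg ran from 49 to 16145 around 3841, activated T versus conventional T from 20 to 6604 around 1522, induced Treg versus activated T from 6 to 16079 around 14, IL-2 induced Treg versus induced Treg from 0 to 807 around 441, natural Foxp3-delta versus natural Treg from 0 to 1901 around 22, and natural Treg versus conventional T from 0 to 2 around 1. Without the filter, a combination chosen after the data were seen, the F test of the brightest Ttr probe set gave adjusted p of 0.0181 as deposited, 0.0517 with array medians, 0.0455 and 0.0353 with pseudocounts of 1 and 64, and 0.0431 with a trend. With array medians Kl 1423400_at was called in its place, and as deposited both Clic6 probe sets were called beside it. In comparisons without the filter, as deposited there were 17 member calls over 3 comparisons (activated T versus conventional T, activated natural Treg versus natural Treg, induced Treg versus activated T), and in activated natural Treg versus natural Treg 5 with array medians, 1 with a pseudocount of 1 and 1 with a trend. The shares of all probe sets called in these unfiltered fits were not counted, so the member calls do not set the members apart from other probe sets. With the filter, as deposited, 6096, 16145 and 16079 of all probe sets were called in the 3 comparisons, in the order listed. With the array set as a block and no filter, 9 of 120 member differences had an unadjusted p under 0.05, 3 of them of Folr1, and 0 were called (smallest limma adjusted p = 0.186). Of the 12 probe sets 11 lay under the filter level, where the pseudocount weighs on differences and SDs.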

Other observations

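The 4 arrays labelled as kept in IL-2 were the 4 highest of all 31 arrays for Clic6 1434165_at after normalisation, a pattern noticed in the data. They read 33.9 to 36.4, and the other 27 arrays 22.4 to 32.9. The other Clic6 probe set, 1454866_s_at, did not share the pattern. It read 15.2 and 18.0 under IL-2 induced Treg and 19.0 and 19.7 under IL-2 induced Foxp3-delta. Its range over all 31 arrays was 15.2 to 19.7. How many of all probe sets had these 4 arrays highest was not counted, so the pattern cannot be read as particular to Clic6. The IL-2 arrays all lie in array set 1, where the other 11 arrays read 25.6 to 31.6. As deposited the IL-2 arrays read 33.0 to 38.8, and 10 of the other 27 arrays exceeded their lowest value. In IL-2 induced Treg versus induced Treg the log2 difference of this probe set was 0.10 (SE 0.07, limma adjusted p = 0.639 without the filter).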
